A study of Homo sapiens with 12 samples.

Results

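Lysosomal cathepsins are the proteases that cut proteins into peptides and amino acids inside the lysosome. The 10 members described here are CTSA, CTSB, CTSC, CTSD, CTSF, CTSH, CTSK, CTSL, CTSS and CTSZ. They were found by gene symbol among 58721 genes in the deposited tables, and the symbols were listed with earlier results of these data known. RNA-seq was performed on 12 libraries of Pa-Tu-8902 and MIA PaCa-2, which are human pancreatic cancer cell lines. Both lines carried a short hairpin RNA against GOT1, the cytosolic aspartate aminotransaminase, that doxycycline (dox) switches on (iDox-shGOT1). The 4 groups were Pa-Tu-8902 without dox, Pa-Tu-8902 with dox for 5 days, and the same pair for MIA PaCa-2, with 3 libraries each. The untreated cells carried the hairpin too, and all cells were grown in DMEM with serum. The stable lines were made by lentiviral transduction and drug selection, and whether they were pools or clones is not stated for them. No dox-treated cells without the GOT1 hairpin were sequenced, and an effect of dox itself cannot be told apart from one of GOT1 knockdown. The labels and the methods give the dox dose in different units, and it is not stated here. The labels do not say whether replicates were separate cultures, so p-values measure the spread between libraries, which may be technical.

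Cathepsins are made as inactive proenzymes in the endoplasmic reticulum. In the Golgi most of them receive mannose 6-phosphate, which receptors recognise for transport to endosomes. The acidic lysosome then removes the propeptide and frees the active enzyme. CTSD is an aspartic protease and CTSA a serine carboxypeptidase, and the other members are cysteine proteases of the papain family. CTSB, CTSL, CTSS, CTSK and CTSF cut within proteins. CTSH, CTSC and CTSZ trim ends, as an aminopeptidase, a dipeptidyl peptidase and a carboxypeptidase. Transcription factors of the TFEB family raise many lysosomal genes through promoter elements built around the letters CACGTG. The study examined how GOT1 knockdown changes these cells, including their lysosomal and autophagy programmes, and the comparisons below give the cathepsin part of that question.

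The labels were checked first. GOT1 mRNA was 78.26, 81.49 and 83.38 TPM (a length-corrected share of the library's transcripts) in untreated Pa-Tu-8902 and 4.51, 3.29 and 3.68 TPM with dox. MIA PaCa-2 libraries held 44.08, 38.90 and 42.69 TPM of GOT1 without dox and 1.68, 1.95 and 1.87 TPM with dox. The log2 fold changes were -4.64 and -4.76, so knockdown was present in every dox-treated library. Libraries held 26226537 to 43406137 counts. Keratin genes KRT8, KRT18 and KRT19 were abundant in both lines, while KRT7, EPCAM and CDH1 were at most 1.26 TPM in MIA PaCa-2 and at least 60.01 TPM in Pa-Tu-8902. VIM was 3531 to 4218 TPM in MIA PaCa-2 and at most 10.46 TPM in Pa-Tu-8902. Of the other listed markers of a mesenchymal state, ZEB1 was 7.71 to 12.37 TPM in MIA PaCa-2 and at most 0.88 TPM in Pa-Tu-8902. CDH2 and FN1 went the other way at low levels. They were at most 0.01 and 0.16 TPM in MIA PaCa-2 and at most 1.16 and 1.02 TPM in Pa-Tu-8902. Macrophages, which are rich in cathepsins, were looked for with 8 leukocyte markers. Their summed level in Pa-Tu-8902 was 0.45 to 1.23 TPM without and 0.83 to 1.05 TPM with dox. It was 3.60 to 4.19 TPM and 1.64 to 1.95 TPM in the same groups of MIA PaCa-2. AIF1 and MS4A1 were at 0 in all 12 libraries, and CD14 made up most of the sum in MIA PaCa-2.

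The promoter letters are shown because they bear on the lysosomal transcription factors described further on. RefSeq promoters (GRCh38.p14, 250 bases before to 50 after the start site) matched 7 of the 10 members. CACGTG, which reads the same on both strands, was found in CTSA, CTSD and CTSF and not in the windows of CTSC, CTSH, CTSL or CTSZ. Of 35116 promoters of the same length, 7.26% held it. Each line below is 26 bases, 5′ to 3′ on the gene's strand, with the motif in capitals.
CTSA first: ggaagactgtCACGTGgcgccggagt
CTSA second: cgccggagttCACGTGactcgtacac
CTSD: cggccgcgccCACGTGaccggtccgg
CTSF first: atataacaagCACGTGatagaggtca
CTSF second: ctgcgcgcccCACGTGcctcctgtaa
The CTSA motifs begin 42 and 25 bases before the start site, at chr20:45891283-45891308 and chr20:45891300-45891325 on the plus strand, and these 2 windows share bases. The CTSD motif begins 47 bases before the start site, at chr11:1763959-1763984 on the minus strand. The CTSF motifs begin 123 and 51 bases before it, at chr11:66568714-66568739 and chr11:66568642-66568667, also on the minus strand. A match describes letters and not a bound site. Of the members that hold them, CTSD was the most abundant in Pa-Tu-8902, and CTSF was close to 0 in both lines.

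Untreated Pa-Tu-8902 cells held more CTSD than any other member, and untreated MIA PaCa-2 cells held a more even mixture. The summed level of the 10 members was 1159 ± 37.2 TPM (SD, n = 3) in untreated Pa-Tu-8902 and 1407 ± 53.0 TPM with dox. MIA PaCa-2 held 1278 ± 86.7 TPM without dox and 1206 ± 37.0 TPM with dox. In TPM the pool was larger in every dox-treated than in any untreated Pa-Tu-8902 library, while the MIA PaCa-2 groups overlapped. The overlap rested on untreated MIA PaCa-2 replicate 2 (1182.55 TPM), which lay below the highest dox-treated library of that line (1243.05 TPM). As a share of all counts, neither line overlapped. The MIA PaCa-2 pool was then lower after treatment (at most 0.129%, untreated at least 0.1348%). The Pa-Tu-8902 pool was higher (at least 0.1385%, untreated at most 0.1288%). In Pa-Tu-8902 the order without dox was CTSD, CTSB, CTSZ, CTSL, CTSC, CTSA, CTSH, CTSK, CTSS and CTSF, and no neighbours overlapped over the 3 libraries. With dox CTSL stood above CTSZ and CTSA above CTSC, and CTSC (59.57 ± 3.05 TPM, n = 3) overlapped CTSH (53.91 ± 4.46 TPM). In untreated MIA PaCa-2, CTSZ, CTSD, CTSC, CTSB and CTSL formed a run in which each overlapped the next. With dox CTSD led that line on its own at 282.8 ± 15.2 TPM, and CTSZ came after CTSB and CTSL and overlapped CTSL.

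**Figure D1:**
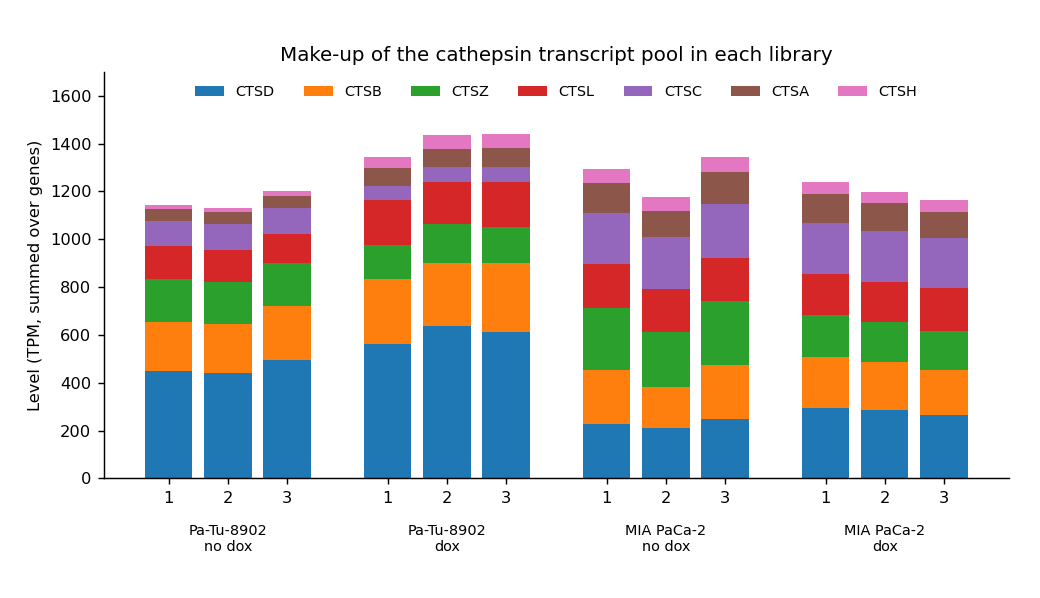
Level of 7 cathepsins (TPM, summed over genes) in each library, stacked, with the replicate number under each bar. CTSK, CTSS and CTSF are too low to draw. The dox-treated Pa-Tu-8902 bars stand above the untreated ones of that line, with a summed level over all 10 members of 1407 ± 53.0 against 1159 ± 37.2 TPM, and CTSD is the largest block in both Pa-Tu-8902 groups.

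With dox, most cathepsins tested in Pa-Tu-8902 had a log2 fold change above 0, and few changes were large enough to be called. CTSH and CTSA rose, CTSC fell, and the rest were below the limits of the test. A gene was called with a Benjamini-Hochberg adjusted p below 0.01 over all genes tested (edgeR quasi-likelihood test) and a fold change of at least 1.5. Of the 10 members, 9 passed the filter on low counts in Pa-Tu-8902, and 3 were called. The 2 called higher stand beside 9.22% of all 14949 genes tested, and the 1 called lower beside 7.12%. The median log2 fold change of the 9 was 0.42, against 0.00 over all genes, and 7 of the 9 were above 0. CTSS, 1 of those 7, passed the filter through its dox-treated libraries alone. Its direction was bound to be up and its groups to stand apart, and the median of the other 8 was 0.36. Those 8 also had groups that did not overlap in normalised counts, as did 58.5% of all genes. For MIA PaCa-2, 8 members passed the filter and 1 was called. That member, CTSZ, was lower, as were 7.64% of all 14589 genes. None of the 8 was called higher by edgeR, DESeq2 or limma on TPM, as 4.36% of all genes were by edgeR, and 1 was higher at an unadjusted edgeR p below 0.05. The median of the 8 was -0.17, against -0.01 over all genes, and 1 of the 8, CTSD, was above 0. Groups did not overlap for 5 of the 8, beside 52.9% of all genes. In bulk RNA, a change in the number of cells that carry a transcript and a change per cell cannot be told apart.

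**Figure D2:**
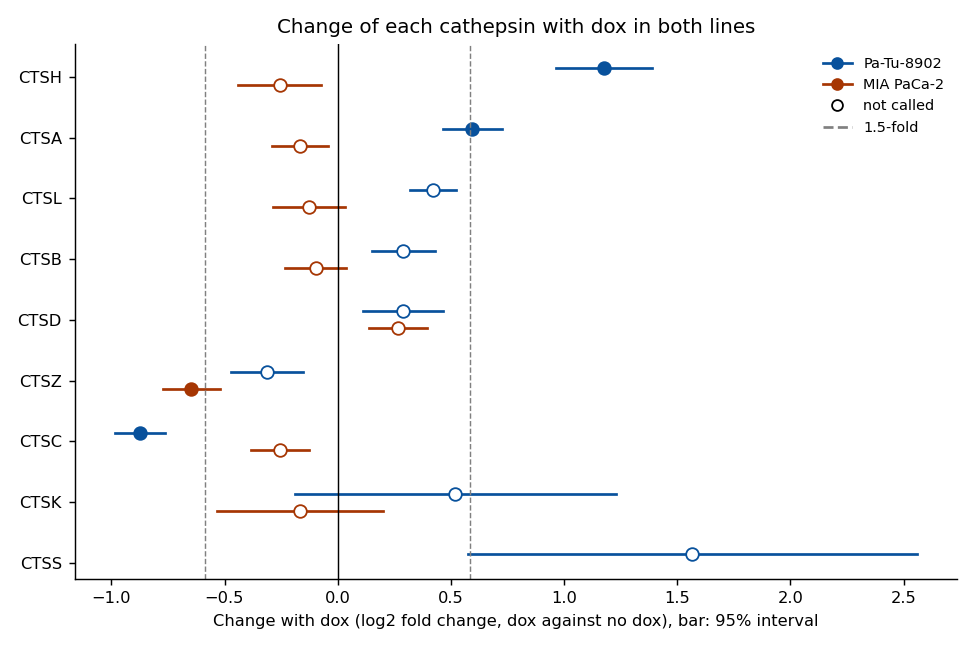
Log2 fold change of 9 cathepsins with dox, with Pa-Tu-8902 in blue and MIA PaCa-2 in brown, with 95% intervals. Filled points were called, dashed lines mark a fold of 1.5, and CTSS was not tested in MIA PaCa-2. CTSH, CTSA, CTSL and CTSB lie to the right of 0 in Pa-Tu-8902 and to the left in MIA PaCa-2, where CTSZ was called, and the CTSD points lie together.

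Whether the 2 lines differed in their response was tested as the difference of the dox changes in a fit of all 12 libraries (Pa-Tu-8902 minus MIA PaCa-2). Here 9 members were tested and 3 were called. CTSH (1.43) and CTSA (0.76) were called higher, as were 6.56% of 16544 genes, and CTSC (-0.62) lower, as were 3.86%. The median of the 9 was 0.55, against 0.00 over all genes. It includes CTSS (1.92, not called), which passed the filter through its dox-treated Pa-Tu-8902 libraries alone. The filter therefore fixed the direction of its change in Pa-Tu-8902, and its value here is no result. This test shares its libraries with the comparisons within each line and is no separate evidence of their direction.

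CTSH is an aminopeptidase that also takes part in processing surfactant protein and other precursors. Its gene lies at chr15:78921058-78949574 on the minus strand (ENSG00000103811, positions here and below from GENCODE v44 on GRCh38). In Pa-Tu-8902 its level was 15.69, 19.50 and 20.32 TPM without dox and 48.80, 57.00 and 55.93 TPM with dox. The lowest dox-treated library stood far above the highest untreated one. CTSH rose by 1.18 on the log2 scale (SE 0.095, edgeR adjusted p = 3.26e-06), which was the largest change among the called members. MIA PaCa-2 libraries held 59.24, 59.09 and 63.06 TPM without dox and 51.01, 47.51 and 49.35 TPM with dox. The groups did not overlap there either, but the change was small and not called (log2 fold change -0.26, SE 0.083, edgeR adjusted p = 0.0277). The dox-treated Pa-Tu-8902 libraries lay within the range of the 6 MIA PaCa-2 libraries (47.51 to 63.06 TPM). The change differed between the lines by 1.43 (95% interval 1.15 to 1.72, edgeR adjusted p = 5.14e-07). RSEM gave CTSH reads to several annotated transcripts, and the largest share, 27.6% to 43.9% over the libraries, went to CTSH-202, which is annotated as subject to nonsense-mediated decay. The coding transcript CTSH-218 had a mean of 4.36 TPM without and 11.27 TPM with dox in Pa-Tu-8902. CTSH-201, also coding, had 3.25 and 3.60 TPM. With RSEM's effective lengths in the fit, the gene's rise in Pa-Tu-8902 was 1.47. Over the 12 libraries, the genes with the log2 CPM pattern most like CTSH among 16544 were ADRA2C, MAGED2 and SYNGR1 (Pearson r 0.986, 0.983 and 0.981), where the libraries share line and treatment.

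CTSA, at chr20:45890144-45898949 on the plus strand (ENSG00000064601), is a carboxypeptidase that also protects the sialidase NEU1 and the galactosidase GLB1 in a complex. Its level in Pa-Tu-8902 was 50.32, 47.96 and 48.30 TPM without dox and 74.53, 75.33 and 82.88 TPM with dox. Every dox-treated library was above every untreated one. CTSA rose by 0.59 (SE 0.059, edgeR adjusted p = 1.45e-05), a fold of 1.51 that just met the limit. It fell under the fold limit without untreated replicate 2 (0.56) or dox-treated replicate 3 (0.57). In MIA PaCa-2 CTSA was 126.77, 110.62 and 133.19 TPM without dox and 120.68, 116.57 and 111.64 TPM with dox, and these ranges overlapped. Normalised counts did not, at 4689 ± 88.6 (SD, n = 3) and 4177 ± 85.0. The log2 fold change there was -0.17 (edgeR adjusted p = 0.0315), not called. The difference of the changes was 0.76 (95% interval 0.59 to 0.94, edgeR adjusted p = 3.31e-06). One coding transcript, CTSA-220, carried 75.7% to 84.8% of the gene's TPM. Genes on the opposite strand overlap CTSA, PLTP with 0 to 300 counts and NEURL2 with 19 to 49, and the strand setting of the counting is not stated.

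CTSC cuts dipeptides from the start of proteins and activates granule serine proteases in immune cells. It lies at chr11:88265069-88359684 on the minus strand (ENSG00000109861). Its level in Pa-Tu-8902 was 104.46, 109.65 and 110.18 TPM without dox and 56.59, 62.69 and 59.43 TPM with dox. CTSC was the member called lower in this line, by 0.87 (SE 0.050, edgeR adjusted p = 2.87e-07), and the groups stood far apart. MIA PaCa-2 libraries held 214.37, 215.38 and 227.16 TPM without dox and 211.78, 215.25 and 206.39 TPM with dox. Those TPM ranges overlapped, whereas normalised counts did not, at 6690 ± 318.2 (SD, n = 3) and 5608 ± 75.4. The log2 fold change of the counts was -0.25 (edgeR adjusted p = 0.00523), under the fold limit. CTSC fell further in Pa-Tu-8902 than its MIA PaCa-2 value (log2 difference -0.62, 95% interval -0.79 to -0.45, edgeR adjusted p = 1.80e-05). That call was lost without dox-treated Pa-Tu-8902 replicate 1 (-0.58).

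The isoform tables describe CTSC further. CTSC-201, the transcript of 7 exons and 1870 bases, runs over chr11:88293592-88337736. CTSC-206 has 4 exons and 778 bases, lies at chr11:88326086-88337733 and shares 1 identical exon with CTSC-201. In MIA PaCa-2, CTSC-201 was 110.23, 104.38 and 110.85 TPM without dox and 79.34, 77.88 and 74.05 TPM with dox. The transcript was lower in every dox-treated library, and its share of the gene went from 48.5% to 51.4% down to 35.9% to 37.5%. CTSC-206 was 44.99, 39.54 and 46.40 TPM without dox and 58.34, 59.15 and 67.50 TPM with dox, so it stood higher in every dox-treated library. CTSC-205, another short transcript of 4 exons, was 46.33 to 57.75 TPM without and 48.90 to 59.48 TPM with dox, which overlap. Together, the 6 annotated transcripts that end before the third exon of CTSC-201 took 48.0% to 51.4% of the gene's TPM without dox and 62.3% to 63.9% with dox. The gene's effective length was 1220 to 1290 bases without dox and 1106 to 1154 bases with dox. With effective lengths in the fit, the log2 fold change of CTSC in MIA PaCa-2 was -0.12 (edgeR adjusted p = 0.206). In Pa-Tu-8902 CTSC-201 was 80.50, 86.37 and 84.20 TPM without dox and 47.53, 47.70 and 48.66 TPM with dox, and it took 76.1% to 84.0% of the gene in all 6 libraries. Isoform values are RSEM estimates that divide reads between overlapping transcripts, and these shares were not tested.

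**Figure D3:**
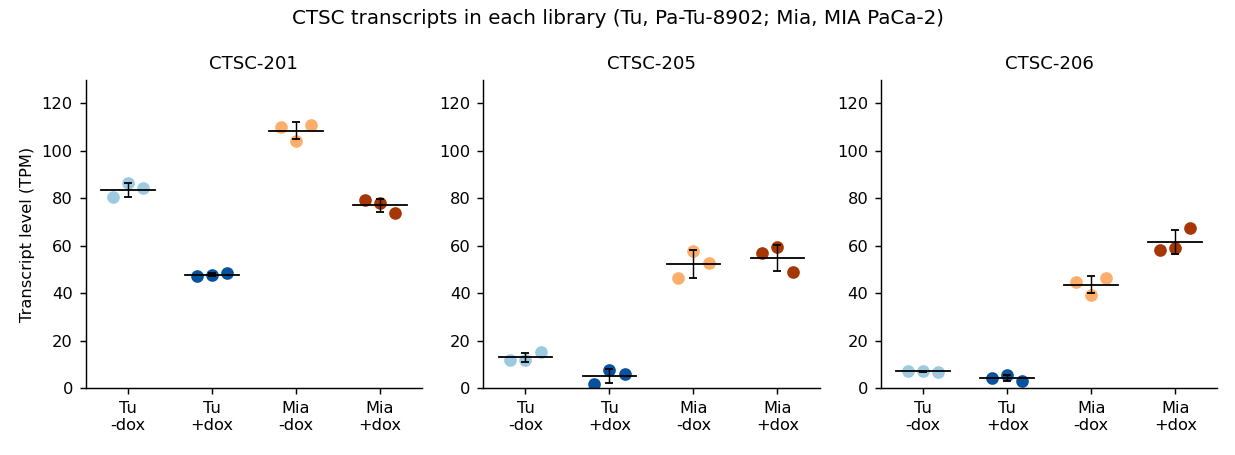
Level (TPM) of 3 CTSC transcripts in each library, with the group mean and SD (n = 3). CTSC-201, which spans 7 exons, was lower with dox in both lines, and CTSC-206, which stops early, was higher with dox in MIA PaCa-2 (43.64 against 61.66 TPM) and not in Pa-Tu-8902 (7.22 against 4.32 TPM).

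CTSZ is a carboxypeptidase that removes single residues. It lies at chr20:58985686-59008238 on the minus strand (ENSG00000101160). MIA PaCa-2 libraries held 259.28, 229.23 and 266.79 TPM without dox and 176.30, 166.43 and 162.36 TPM with dox. All dox-treated libraries were below all untreated ones. CTSZ fell by 0.65 (SE 0.057, edgeR adjusted p = 6.82e-06), a fold of 1.57. On log2(TPM + 1) with limma, the change was -0.58 and under the fold limit (limma adjusted p = 0.000537). In Pa-Tu-8902 CTSZ was 179.51, 174.94 and 180.18 TPM without dox and 139.98, 161.57 and 150.82 TPM with dox. Its groups did not overlap, and the log2 fold change was -0.31 (edgeR adjusted p = 0.00411), not called. The changes in the lines differed by 0.34 (95% interval 0.13 to 0.54, edgeR adjusted p = 0.0167), which did not pass. CTSC and CTSZ had log2 fold changes below 0 with dox in both lines. Transcript CTSZ-201 carried at least 97.5% of the gene in every library. NELFCD, on the opposite strand and overlapping CTSZ, had 3655 to 6832 counts, and its part in the CTSZ values was not tested. Genes with the pattern most like CTSZ over the 12 libraries were SAE1, SCCPDH and NES (Pearson r 0.974, 0.974 and 0.973, 16544 genes).

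CTSD, the main aspartic protease of lysosomes, lies at chr11:1752752-1764573 on the minus strand (ENSG00000117984). Its level in Pa-Tu-8902 was 449.53, 440.55 and 492.93 TPM without dox and 563.10, 635.73 and 611.34 TPM with dox. In the other line CTSD was 229.16, 210.65 and 247.75 TPM without dox and 296.09, 286.01 and 266.17 TPM with dox. The dox-treated libraries were higher in both lines with no overlap, by a log2 fold change of 0.29 (SE 0.080, edgeR adjusted p = 0.0109) and 0.27 (SE 0.059, edgeR adjusted p = 0.00377). Neither met the fold limit. The difference between these changes was 0.03 with a 95% interval of -0.20 to 0.25. CTSD-214, annotated as a transcript without a coding frame, took 23.3% to 30.4% of the gene's TPM. A readthrough gene on the same strand, ENSG00000250644, shares the locus and had 132.0 to 799.2 counts.

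CTSL and CTSB are the cysteine endopeptidases with the highest levels here. CTSL, at chr9:87724051-87731469 on the plus strand (ENSG00000135047), was 138.36, 132.54 and 121.70 TPM without dox and 190.58, 176.22 and 190.70 TPM with dox in Pa-Tu-8902. The groups stood apart, and the log2 fold change was 0.42 (SE 0.046, edgeR adjusted p = 2.59e-05), a fold of 1.34 under the limit. In MIA PaCa-2 CTSL was 183.57, 180.00 and 180.80 TPM without and 173.53, 165.16 and 181.16 TPM with dox, and the groups overlapped (log2 fold change -0.13, edgeR adjusted p = 0.178). The changes differed by 0.55 (95% interval 0.36 to 0.74, edgeR adjusted p = 0.000184), a fold of 1.47 just under the limit. Pseudogenes of CTSL had 0 counts in all libraries. CTSB, on chromosome 8 (11842524 to 11869533, minus strand, ENSG00000164733), was 204.32, 206.84 and 227.50 TPM without dox and 270.95, 265.09 and 287.69 TPM with dox in Pa-Tu-8902. These did not overlap, at a log2 fold change of 0.29 (edgeR adjusted p = 0.00306). In MIA PaCa-2 CTSB was 222.80, 173.22 and 226.28 TPM without and 209.50, 202.43 and 187.00 TPM with dox, which overlapped (log2 fold change -0.10, edgeR adjusted p = 0.233). The difference of the CTSB changes was 0.39 (95% interval 0.19 to 0.59, edgeR adjusted p = 0.0054), below the fold limit.

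**Figure D4:**
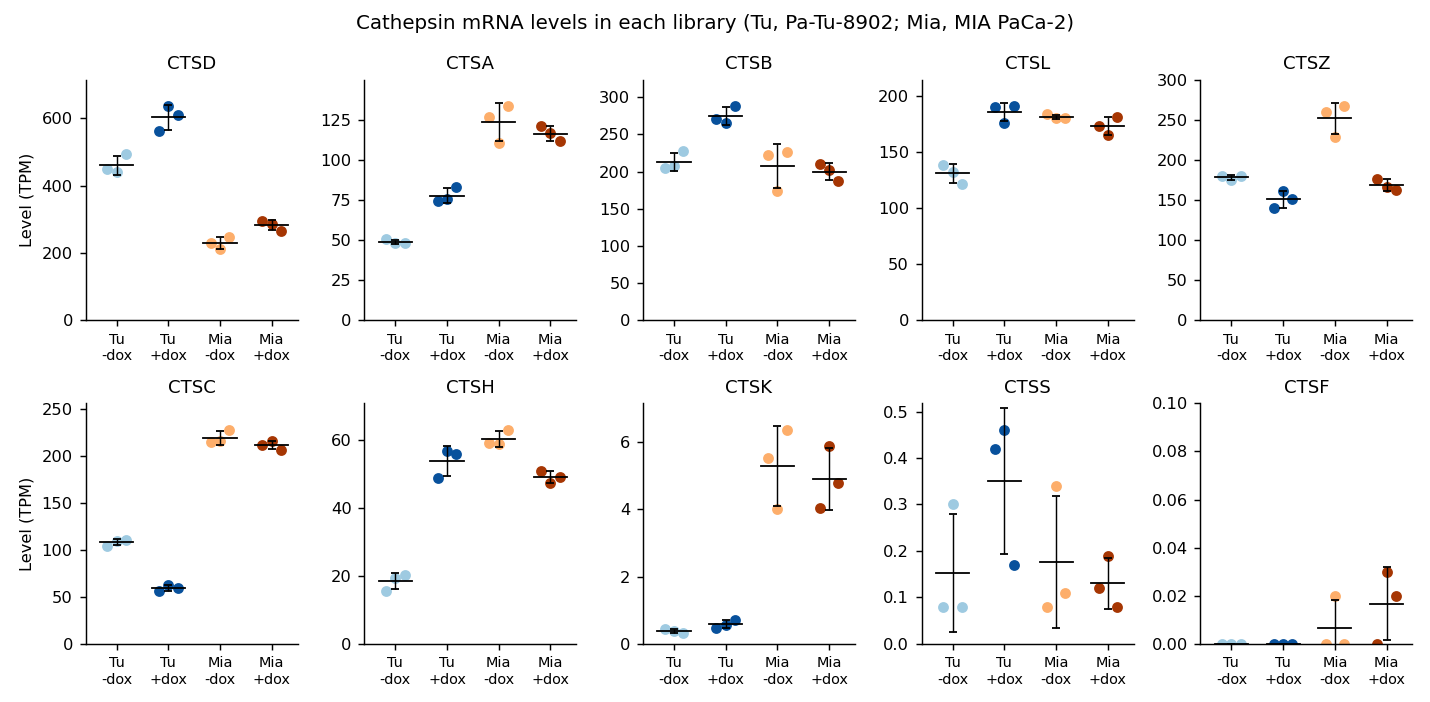
Level (TPM) of each of the 10 cathepsins in each library, with the group mean and SD (n = 3). Axes start at 0 and differ between genes. CTSH and CTSA climb with dox in Pa-Tu-8902 towards their MIA PaCa-2 levels, CTSC drops away from it, and CTSK is 4.0 to 6.36 TPM in untreated MIA PaCa-2 against 0.32 to 0.43 TPM in untreated Pa-Tu-8902.

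The remaining members were scarce. CTSK, the collagen-cutting cathepsin of osteoclasts, lies at chr1:150794880-150809577 on the minus strand (ENSG00000143387). It was 0.43, 0.37 and 0.32 TPM without and 0.47, 0.56 and 0.72 TPM with dox in Pa-Tu-8902, and 5.53, 4.0 and 6.36 TPM without and 4.04, 5.88 and 4.80 TPM with dox in MIA PaCa-2. Neither change was called (log2 fold changes 0.52 and -0.17, edgeR adjusted p = 0.202 and 0.455). The osteoclast markers ACP5 and DCSTAMP were at 0 in all MIA PaCa-2 libraries, and the 5 osteoclast markers summed to 0.66 to 1.3 TPM there. CTSS, which trims the invariant chain of class II molecules in antigen-presenting cells, lies at chr1:150730079-150765957 on the minus strand (ENSG00000163131). It was at most 0.46 TPM in every library. In Pa-Tu-8902 it had 4.92 ± 2.22 normalised counts (SD, n = 3) without and 15.3 ± 3.81 with dox, a log2 fold change of 1.57 with a 95% interval of 0.57 to 2.56 (edgeR adjusted p = 0.0135), and it was not called. CTSS did not pass the filter in MIA PaCa-2, at 3.91 and 2.96 normalised counts on average. CTSF (chr11:66563464-66568879, minus strand, ENSG00000174080) had 0 counts in the 6 Pa-Tu-8902 libraries and at most 0.03 TPM in MIA PaCa-2, so it was tested nowhere. By counting error alone, 0 counts leave room for as many as 3, which is a CPM of 0.0691 to 0.114 at these depths.

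At baseline the lines differed in most genes, and the cathepsins differed about as often. Of 8 members tested between untreated Pa-Tu-8902 and untreated MIA PaCa-2, 5 were called, beside 9072 of all 15608 genes tested. CTSD was higher in Pa-Tu-8902 by 0.96 (SE 0.076, edgeR adjusted p = 6.90e-08), as were 28.9% of 15608 genes. The 4 called lower in Pa-Tu-8902, as were 29.3% of all genes, were CTSK (-3.84), CTSH (-1.45), CTSA (-1.40) and CTSC (-0.80). CTSK was the widest of these, at 14.4-fold. CTSL (-0.56) and CTSZ (-0.54) were lower past the adjusted p but within the fold limit. CTSB differed by less than its error, with a log2 difference of -0.03 (95% interval -0.19 to 0.13). The groups did not overlap for 7 of the 8, beside 81.7% of all genes. The line and its own culture history cannot be told apart. For CTSH and CTSA, the called dox changes in Pa-Tu-8902 ran towards the MIA PaCa-2 baseline, and for CTSC away from it. Both comparisons use the untreated Pa-Tu-8902 libraries, so the direction of one is not independent of the other.

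Other cathepsins were read from a separate list of 5. CTSO, a lysosomal cysteine cathepsin, was 0.65, 0.53 and 0.72 TPM without and 3.82, 3.36 and 4.01 TPM with dox in Pa-Tu-8902. It rose by 2.48 (SE 0.15, edgeR adjusted p = 4.89e-07), more than any of the 10 members called. CTSO in MIA PaCa-2 was 1.13, 0.97 and 1.24 TPM without and 1.22, 1.00 and 1.42 TPM with dox, which overlapped. CTSV, a close relative of CTSL, was 23.45, 23.82 and 23.99 TPM without and 46.22, 42.75 and 42.18 TPM with dox in Pa-Tu-8902, a log2 rise of 0.81 (edgeR adjusted p = 2.26e-06). In the other line CTSV was 36.91, 33.86 and 35.41 TPM without and 24.70, 26.24 and 26.07 TPM with dox. That change, -0.54 (edgeR adjusted p = 0.000147), was under the fold limit. The difference between the lines was 2.38 for CTSO and 1.35 for CTSV (edgeR adjusted p = 1.32e-06 and 2.71e-08). CTSE, an aspartic protease of endosomes, was 0.99, 1.01 and 1.63 TPM without and 2.04, 1.89 and 1.79 TPM with dox in Pa-Tu-8902. Its TPM was higher with dox with no overlap, whereas its normalised counts overlapped, at 48.0 ± 7.57 and 40.7 ± 5.38 (SD, n = 3). The change of the counts was not called (-0.23, edgeR adjusted p = 0.411). CTSG and CTSW, proteases of blood cells, were at most 0.27 TPM and were not tested.

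Genes that tag and sort cathepsins were measured next. Of 15 genes tested in Pa-Tu-8902, 4 rose, beside 9.22% of all genes, with a median of 0.18. None fell by edgeR, DESeq2 or limma, and 1 was lower at an unadjusted edgeR p below 0.05. The large mannose 6-phosphate receptor IGF2R rose by 0.87 (31.1 to 62.0 TPM on average, edgeR adjusted p = 1.32e-07). NAGPA, which uncovers the mannose 6-phosphate tag, rose by 0.70. The sorting receptors SORL1 and LRP1 rose by 1.75 and 1.39. Not called were GNPTAB (0.32), GNPTG (0.35), M6PR (0.16), SORT1 (-0.02), VPS35 (0.26) and the remaining adaptor and retromer genes GGA1, GGA2, GGA3, AP1M1, VPS26A and VPS29, which lay between -0.21 and 0.18. In MIA PaCa-2 none of the 15 was called by edgeR, DESeq2 or limma (median 0.12), although 8 had an unadjusted edgeR p below 0.05. M6PR (0.39, edgeR adjusted p = 3e-04) and SORT1 (-0.41, edgeR adjusted p = 0.00169) passed the adjusted p without the fold. The difference between the lines was called higher for LRP1 (1.73), GNPTAB (0.69) and IGF2R (0.61), 3 of the 15, beside 6.56% of all genes.

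Among 10 genes for maturation and partners of cathepsins, 4 rose in Pa-Tu-8902, beside 9.22% of all genes, with a median of 0.67. NAPSA, one of the 10, passed the filter through its dox-treated libraries alone and was not called, and the median of the other 9 was 0.46. None fell by edgeR, DESeq2 or limma, and 3 were lower at an unadjusted edgeR p below 0.05. GALNS and NEU1, enzymes found with CTSA in its complex, rose by 1.29 and 0.91. GLB1 of the same complex had a value of -0.15 (edgeR adjusted p = 0.0369). PSAP, the precursor of the saposins that binds CTSD, rose by 0.89, from 163.7 to 321.2 TPM on average, and the tripeptidyl peptidase TPP1 by 1.22. In MIA PaCa-2 GLB1 fell by 0.91 and LGMN, an asparagine endopeptidase that cleaves several cathepsins, by 0.72. These 2 of the 10 stand beside 7.64% of all genes called lower there, and the median was 0.05. None rose there by the 3 tools, and 3 were higher at an unadjusted edgeR p below 0.05. The differences between the lines for NEU1 (1.02), GALNS (0.85), PSAP (0.85), TPP1 (0.79), GLB1 (0.75) and SCPEP1 (0.62) were called higher, that for DPP7 (-0.59) was called lower, and that for LGMN (0.37) was not called. The 6 called higher stand beside 6.56% of all genes, and the 1 called lower beside 3.86%. DESeq2 called 6 higher and 0 lower, and limma 5 and 0, so the call of DPP7 was made by edgeR alone. SCPEP1 and DPP7, both serine peptidases, are named here after their values were seen.

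The lysosomal transcription factor TFEB was low, at 0.83, 1.43 and 1.09 TPM without and 4.15, 3.96 and 4.51 TPM with dox in Pa-Tu-8902. It rose by 1.61 (SE 0.16, edgeR adjusted p = 1.51e-05). MIA PaCa-2 libraries held 4.59, 4.91 and 6.23 TPM without and 5.84, 3.45 and 3.13 TPM with dox, which overlapped in TPM (log2 fold change -0.54, edgeR adjusted p = 0.00789, under the fold limit). TFEB changed differently in the lines by 2.15 (edgeR adjusted p = 1.10e-06). TFEC, at 0.04 to 0.39 TPM in Pa-Tu-8902, had 6, 12 and 2 counts without and 41, 24 and 41 with dox, and it was at 0 in MIA PaCa-2. It passed the filter through its dox-treated libraries, so its call higher is no result. Of the other 7 factors tested in Pa-Tu-8902, TFEB was called higher, beside 9.22% of all genes, and their median was 0.05. By limma on TPM, 1 of the 8 was called. In MIA PaCa-2, MYC, which binds CACGTG as well, rose by 0.59 and BHLHE40 fell by 0.77. That is 1 of 8 in each direction, beside 4.36% of all genes higher and 7.64% lower, and the median of the 8 was 0.22. Of the members whose windows hold CACGTG, CTSA was called in Pa-Tu-8902 and CTSD was not. CTSH and CTSC, with no such letters in their windows, were called as well. Whether TFEB or these letters play a part in the changes was not tested.

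The other lysosomal hydrolases, which act on sugars, lipids and nucleic acids, gave a wider view. Of 31 tested in Pa-Tu-8902, 11 rose and 2 fell, beside 9.22% and 7.12% of all genes, with a median of 0.28, while limma on TPM called 12 higher and 0 lower. LIPA, the acid lipase, rose by 0.85, HGSNAT by 0.83 and GAA by 0.76, while IDS fell by 0.70. In MIA PaCa-2, 0 of the 31 rose by edgeR and 3 fell, beside 4.36% and 7.64% of all genes, with a median of -0.15. At an unadjusted edgeR p below 0.05, 7 were higher, and DESeq2 called 1 and limma 2 higher. FUCA1 fell by 2.5 and LIPA by 1.12. LIPA therefore moved in opposite directions, with a difference of 1.97 (edgeR adjusted p = 2.97e-10).

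**Figure D5:**
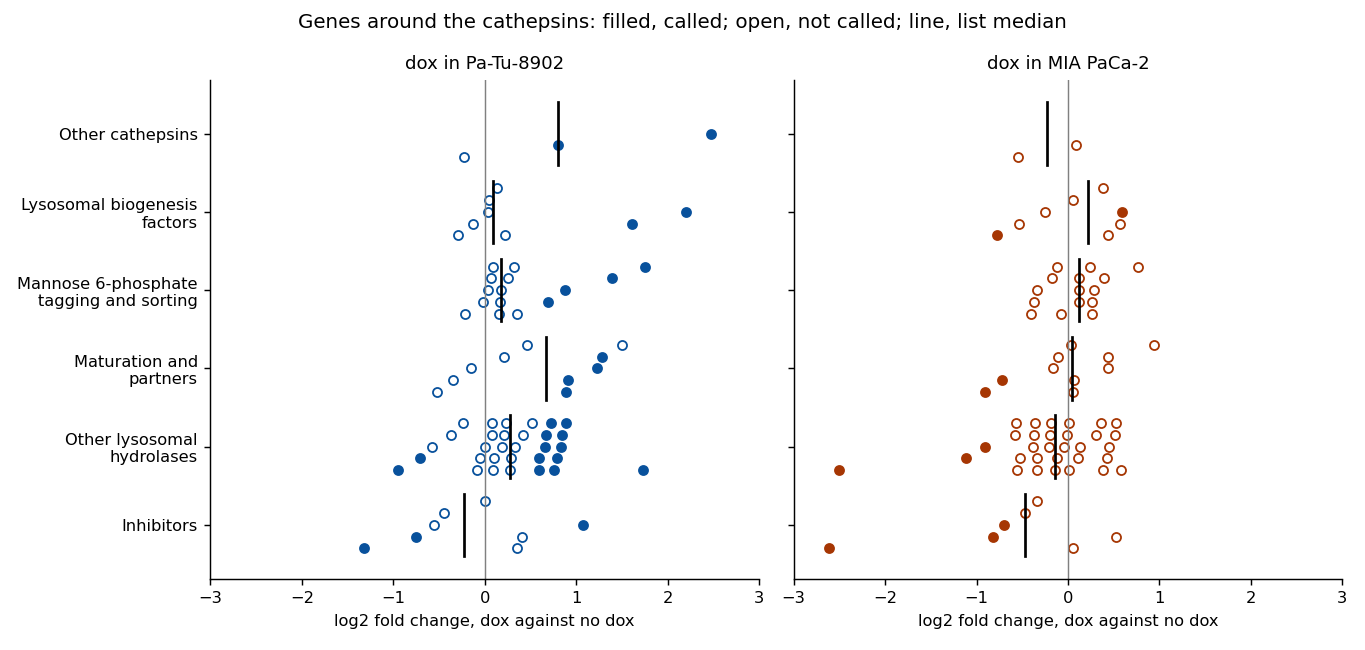
Log2 fold change with dox of the genes around the cathepsins in each line, by list. Each point is a gene, filled where called, and the black line is the list median. The other lysosomal hydrolases hold 11 points called higher in Pa-Tu-8902 and 3 called lower in MIA PaCa-2, and the sorting genes hold 4 called points in Pa-Tu-8902 and none in MIA PaCa-2.

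Inhibitors and substrates complete the account. Of 17 cathepsin inhibitors, 8 were tested in Pa-Tu-8902, of which 1 rose and 2 fell, beside 9.22% and 7.12% of all genes (median -0.22). For MIA PaCa-2, 7 were tested and 3 fell, beside 7.64% of all genes (median -0.47). SERPINB8 fell in both lines, by 1.32 and 0.82. SERPINA3, an inhibitor of chymotrypsin-like proteases, rose by 1.07 in Pa-Tu-8902 from 2.96 TPM, and fell by 2.61 in MIA PaCa-2 from 536.4 to 90.9 TPM on average. Cystatin CST6, which blocks CTSL and CTSV, fell by 0.75 in Pa-Tu-8902 and was not tested in MIA PaCa-2. SERPINB6 fell by 0.70 in MIA PaCa-2. Among the substrates, 4 of 11 were tested in Pa-Tu-8902 and 3 rose, beside 9.22% of all genes. CD74, the invariant chain that CTSS trims, rose by 0.82, from 153.2 to 291.0 TPM on average, in a line where CTSS was at most 0.46 TPM. CDH1 rose by 0.86 and COL1A1 by 1.87. In MIA PaCa-2, 1 substrate was tested, COL1A1, and it was not called (0.81, edgeR adjusted p = 0.200).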

How the data were processed

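Poly(A) RNA was sequenced in 12 libraries, 3 per group. Per the methods and the submitters' processing notes, the authors trimmed paired-end reads with Trimmomatic 0.39, aligned them with STAR 2.5.2a as called by RSEM 1.3.1 with default parameters, and used GENCODE v29 on hg38. The authors deposited expected counts, FPKM and TPM per gene and per isoform, unfiltered and with replicates separate. The libraries are strand-specific, while the strand setting of counting is not given in the sources used here. Expected counts depend on how RSEM divides reads among transcripts, and 5.34% of them are not whole (tolerance 1e-09).

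Counts were rounded, normalised by TMM and tested in R 4.3.3 with edgeR 4.0.16 (glmQLFit and glmQLFTest) over all genes that reached 10 counts in 3 or more of the fitted libraries. Each line's dox effect was fitted on its own 6 libraries, the baseline on the 6 untreated ones, and the difference of dox changes on all 12. Levels and isoform shares are deposited TPM and were described without a test. FPKM values were used for the order of the members as an alternative. The TPM alternative used limma 3.58.1 on log2 values made here from the deposited TPM, and another alternative used DESeq2 1.42.0. On simulated counts with planted changes of 2-fold and 4-fold and an assumed dispersion of 0.01, edgeR called 199 of 200 changed genes in Pa-Tu-8902 (14774 genes tested), 199 in MIA PaCa-2 (14428), 198 at baseline (15312) and 194 for the difference between the lines (15999), and smaller changes were not simulated. Changes were planted only in genes above a mean count that CTSK and CTSS do not reach in Pa-Tu-8902, so recovery at such low counts was not measured. Promoter letters are RefSeq GRCh38.p14, and gene positions GENCODE v44 on the same build. Library totals were 26226537 to 43406137 counts, and limits set by counts of 0 cover counting error only. Replicates differed by more than counting noise (chi-square per degree of freedom 2.2 to 25.3), so none was a copy of another library's counts. Whether replicates came from the same RNA or culture cannot be told from these values.

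All 10 members are named. From each pathway list, genes called in a dox comparison are named, up to the 6 with the smallest p, and all genes of the sorting and other-cathepsin lists. GOT1, the marker genes and the 3 genes most like the called member with the largest change in each line complete the rule, and 1 hydrolase that it names is not reported here. The members and lists were chosen with earlier results of these data known.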

Additional observations from a re-analysis of the deposited data

Results flagged for a closer look

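Dox changes that differed between the lines, by the interaction contrast of edgeR over all 12 libraries, were found for 5 cathepsin genes. Over all 16544 genes, 6.56% were called higher by that contrast and 3.86% lower. The log2 change in Pa-Tu-8902 minus that in MIA PaCa-2 was 1.434 for CTSH, 0.763 for CTSA and -0.6181 for CTSC. For the cathepsins outside the 10 members it was 2.383 for CTSO and 1.351 for CTSV. Groups held 3 libraries, so no single library was tested for standing apart.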

How the results depend on the processing

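With no fold limit, 6 members were called with dox in Pa-Tu-8902, beside 5692 of all 14949 genes, since CTSL, CTSB and CTSZ joined. In MIA PaCa-2, 3 were called, beside 3973 of 14589 genes, since CTSC and CTSD joined. For the difference between the lines, 5 were called, beside 2799 of 16544 genes, since CTSL and CTSB joined. At baseline CTSL and CTSZ joined to give 7, beside 11385 of 15608 genes. With limma on log2(TPM + 1), 0 members were called in MIA PaCa-2, where CTSZ was -0.58, and CTSB at baseline turned to 0.046. The cause was not tested. Leaving out 1 library gave 2 to 3 called members for dox in Pa-Tu-8902 and always 1 for dox in MIA PaCa-2, with 5 to 6 at baseline and 2 to 4 for the difference. CTSB at baseline ranged from -0.12 to 0.10 and turned positive without untreated Pa-Tu-8902 replicate 1 (0.088) or replicate 2 (0.0999). CTSD for the difference ranged from -0.013 to 0.11, and was -0.0066 without untreated replicate 2 and -0.0131 without dox-treated replicate 2 of Pa-Tu-8902. The ratio of the summed level with dox to that without ranged from 1.20 to 1.24 in Pa-Tu-8902 and from 0.909 to 0.971 in MIA PaCa-2. Libraries share replicate numbers across groups, but their deviations correlated at -0.121 to 0.0987, so the numbers were not taken as pairs. With a replicate block, 3, 1, 5 and 3 members were called in the 4 comparisons and no member's call changed. With limma on TPM, the share of called genes that were higher moved from 36.3% to 45.6% in MIA PaCa-2 and from 56.4% to 64.3% in the other line. The low counts of CTSK, CTSS and CTSF limit what could be seen of them.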
